A study of Mus musculus with 4 samples.

Results

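The genes described here make cholesterol and related lipids, sense them or move them through the cell. The set is a list of 35 genes, chosen by role with earlier results of these data known, and 34 of them had a probe set assigned to 1 gene among the 18193 genes on an Affymetrix mouse 430 2.0 array; Acat2, which encodes the thiolase at the entry to the pathway, had none. Where a gene had several probe sets, the one with the highest mean over the 4 arrays stands for it. The arrays hold RNA of CD4+ CD8- thymocytes sorted from female mice aged 6 to 8 weeks, with 1 array for each of 4 populations. All mice carried a GFP allele of Foxp3, which encodes the transcription factor of regulatory T cells. Homozygous Foxp3(gfp/gfp) mice, at backcross 4 to 6 from 129/Sv to C57BL/6, make Foxp3 fused to GFP. Their GFP+ fraction is named Foxp3-fusion below, and their GFP- fraction was split by CD25 into GFP- CD25- and GFP- CD25+ populations. Foxp3(gfpko/wt) females, at backcross 2, gave GFP+ cells, called Foxp3-null cells below because GFP there marks use of the knockout allele. These females are heterozygous, so they also have cells that use the wild-type allele, and genotype, backcross and array cannot be told apart in any comparison with the Foxp3-null array.

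In mammalian cells, cholesterol is built from acetyl-CoA through mevalonate, squalene and lanosterol. When sterols in the endoplasmic reticulum are scarce, Scap carries the transcription factor precursors SREBP to the Golgi, where they are cut and released to switch on genes of sterol and fatty acid synthesis; the Insig proteins hold Scap back when sterols are plentiful. Excess sterol activates LXR receptors, which raise export pumps such as Abca1 and Abcg1. In T cells, activation and growth are known to engage SREBP.

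Every value below is a log2 signal after quantile normalization of the 4 arrays unless the deposited scale is named, and each difference is between 1 array and another, so no test and no error could be given. A fold is the ratio of 2 signals, and a difference counts when it is at least 2-fold. The floor, 4.11 log2, is the upper range of probe sets for genes silent outside other organs, and a signal under it is treated as equal to it. Signals of different probe sets are not compared with each other. All 7 measured markers of CD4 thymocytes, Cd3e and Cd4 among them, were above the floor on every array, and Cd8a lay between 4.42 and 4.78. Between 7813 and 8038 genes were above the floor on an array. The gap between the 3' and 5' actin control probe sets, which widens as RNA or its copies shorten, was 5.02 log2 on the Foxp3-fusion array and 7.10 to 9.29 on the others; for Gapdh it was 4.60 and 4.93 on the Foxp3-fusion and Foxp3-null arrays and 6.51 to 6.56 on the GFP- arrays. Foxp3 and Il2ra, the CD25 gene, served in the sort and are not considered.

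Of the 34 genes, 25 were above the floor on at least 1 array, or 73.5%, against 47.7% of all genes on the array. They comprised 12 of 17 sterol pathway enzymes, 4 of 5 sensors and SREBP regulators, all 5 transport genes and 4 of 7 fatty acid genes. The other 9 were under the floor on all 4 arrays on the probe set used, so their differences were not measured. These are Pmvk and Mvd, which encode the kinase and decarboxylase that follow mevalonate kinase, Fdps (farnesyl diphosphate synthase), Sqle (squalene epoxidase), Cyp51 (lanosterol demethylase), Srebf2 (the SREBP that chiefly drives sterol genes), Scd1, Fads1 and Fads2 (fatty acid desaturases). The Sqle probe set, for example, read 1.79 on every array. Of their other probe sets, 1 for Cyp51 reached the floor, at 4.12 on the Foxp3-fusion array. Of the other 25 genes, 23 were above the floor on all 4 arrays, while Mvk and Npc1 were above it on 2.

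The 25 measured genes did not move as 1 block. Their range over the 4 arrays had a median of 0.95 log2, against 0.83 for all genes above the floor on at least 1 array. A range of at least 2-fold was found for 12 of the 25, or 48%, and for 39.4% of all genes. The highest of the 4 signals was on the Foxp3-fusion array for 10 genes, the Foxp3-null array for 7, the GFP- CD25+ array for 6 and the GFP- CD25- array for 2. For all genes the shares were 25.3%, 38.9%, 20.8% and 14.9% in that order. On the deposited scale the Foxp3-fusion array was highest for 15 of the 25 genes and for 42.6% of all genes.

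**Figure D1:**
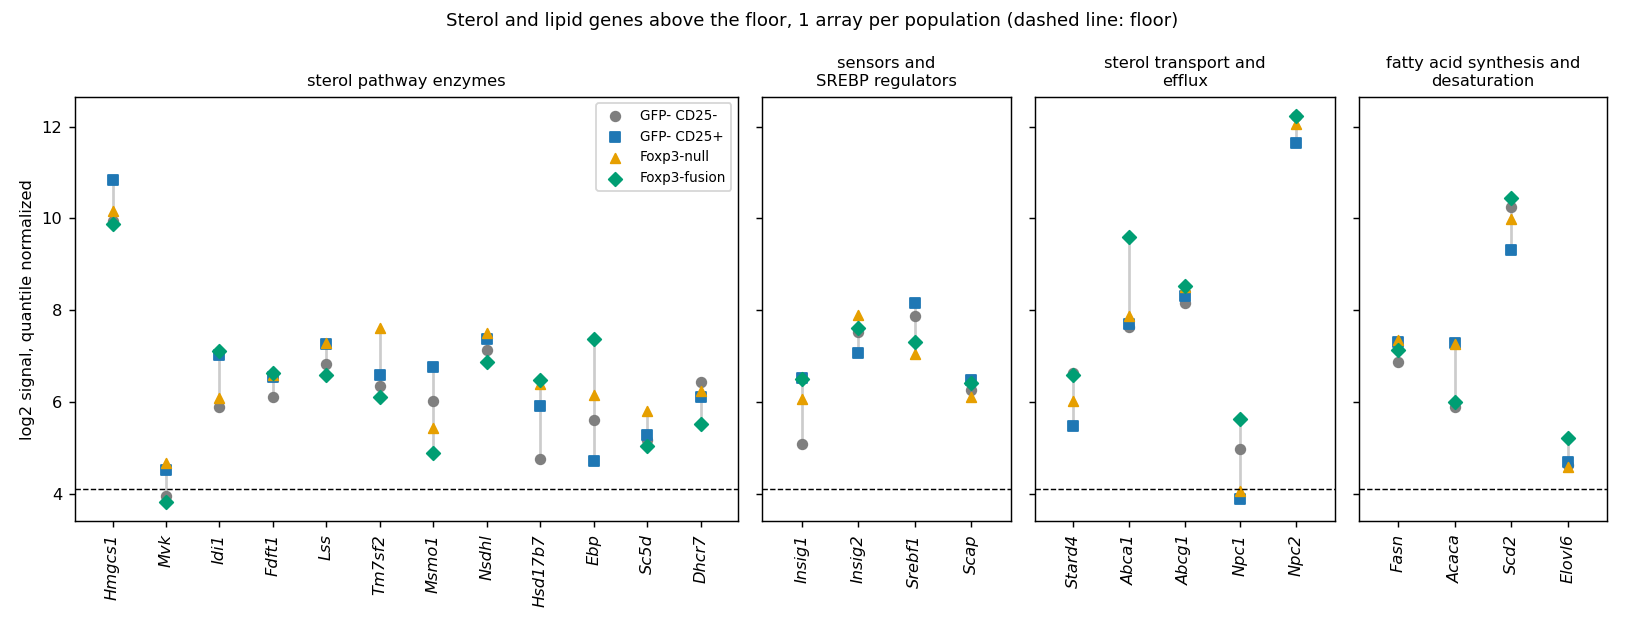
Signal (log2, quantile normalized) of each of the 25 genes above the floor on at least 1 array, by gene group; each symbol is 1 array, a grey bar joins the lowest and highest, and the dashed line is the floor at 4.11. Abca1 stands out on the Foxp3-fusion array at 9.59 against 7.64 to 7.87 on the others, and Insig1 and Hsd17b7 are lowest on the GFP- CD25- array.

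SREBP proteins are known to bind sterol regulatory elements and E-boxes near the start sites of their targets. RefSeq promoter windows of GRCm38.p6, from 250 bases before to 50 after a start site, were listed for 26 of the 35 genes, 34 windows in all. On either strand, the element TCACNCCAC was found in 1 of the 34, that of Hmgcs1, and in 1.24% of 32851 windows of all genes. Its shorter core CACNCCAC, which overlaps it, was in 3 windows (Acat2, Hmgcs1 and Insig1), or 8.82% against 6.24% of all. The E-box CACGTG was in 7 windows of 6 genes (Abca1, Dhcr7, Hsd17b7, Insig1, Sc5d and Scap), or 20.6% against 7.15%. The Scap windows with it overlap and hold the same E-box, which is thus counted in each. CCAAT was in 61.8% of the 34 windows and 37.4% of all, and GGGCGG in 76.5% and 35.7%. Such matches are letters in a window, not shown binding.

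The stretches around the element of Hmgcs1 and around the E-boxes of the 3 genes with that match that differed 2-fold between arrays on the probe set used are printed 5' to 3' on the gene's strand, with the match in capitals; the last 3 were chosen after their values were seen. They lie at chr13:119690154-119690282 (plus strand) for Hmgcs1, chr5:28071251-28071376 (plus) for Insig1, chr1:169969283-169969408 (minus) for Hsd17b7 and chr4:53159977-53160102 (minus) for Abca1, all upstream of the start site. The matches begin 137, 101, 143 and 147 bases before it in the same order.
Hmgcs1: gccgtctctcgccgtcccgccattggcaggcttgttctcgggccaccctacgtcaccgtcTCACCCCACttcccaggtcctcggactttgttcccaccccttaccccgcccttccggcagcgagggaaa
Insig1: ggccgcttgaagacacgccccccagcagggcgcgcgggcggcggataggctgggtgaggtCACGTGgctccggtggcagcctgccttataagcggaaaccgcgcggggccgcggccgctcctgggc
Hsd17b7: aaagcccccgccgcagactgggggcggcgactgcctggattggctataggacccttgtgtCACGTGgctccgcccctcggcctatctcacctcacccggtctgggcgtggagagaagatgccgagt
Abca1: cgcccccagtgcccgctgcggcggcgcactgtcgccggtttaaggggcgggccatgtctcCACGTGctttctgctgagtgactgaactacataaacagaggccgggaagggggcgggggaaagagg

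In the first part of the pathway, up to squalene, the genes were highest in different populations. Values are given in the order GFP- CD25-, GFP- CD25+, Foxp3-null and Foxp3-fusion here and below. Hmgcs1, the HMG-CoA synthase that supplies the precursor of mevalonate, read 9.95, 10.84, 10.17 and 9.89. It was highest in GFP- CD25+ cells, 1.85-fold over GFP- CD25- cells, and the other 3 arrays lay within 0.27 log2 in this probe set. Of the other Hmgcs1 probe sets, 3 were above the floor, and none of these was highest in GFP- CD25+ cells. The one that read 5.90, 5.24, 5.43 and 4.90 was 2-fold lower in Foxp3-fusion than in GFP- CD25- cells.

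Idi1, which isomerises the isoprenoid unit, read 5.89, 7.03, 6.10 and 7.11. GFP- CD25+ and Foxp3-fusion cells were thus the high pair and the other two the low pair, with Foxp3-fusion cells 2.32-fold and GFP- CD25+ cells 2.2-fold over GFP- CD25- cells. The second Idi1 probe set read 5.37, 6.14, 6.17 and 6.67; it was also lowest in GFP- CD25- cells and highest in Foxp3-fusion cells, 2.46-fold apart, but did not place Foxp3-null cells with the low pair.

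Mvk (mevalonate kinase) was above the floor only on the GFP- CD25+ array at 4.53 and the Foxp3-null array at 4.69, too close to the floor for a 2-fold difference. Fdft1, squalene synthase, read 6.11, 6.55, 6.60 and 6.65. It was lowest in GFP- CD25- cells, by 1.36-fold to 1.46-fold. Its probe set is of a type that can match several transcripts. Another Fdft1 probe set, close to the floor, read 4.27, 4.22, 4.64 and 4.28 and was not lowest in GFP- CD25- cells.

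Among the enzymes that turn squalene into cholesterol, Ebp, Hsd17b7, Tm7sf2 and Msmo1 each had 2-fold differences, and no 2 of them ranked the 4 populations alike. Ebp, a sterol isomerase, read 5.62, 4.73, 6.16 and 7.38. Both GFP+ arrays were above both GFP- arrays. Foxp3-fusion cells were 6.26-fold over GFP- CD25+ cells, 3.39-fold over GFP- CD25- cells and 2.32-fold over Foxp3-null cells; Ebp has a single probe set. The actin 3' to 5' gap ran in the reverse order of these signals, at 8.37, 9.29, 7.10 and 5.02 log2. For Gapdh the gap was 6.56, 6.51, 4.93 and 4.60. The part of this in the Ebp differences was not tested.

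Hsd17b7, the ketone reductase of sterol demethylation, read 4.78, 5.92, 6.39 and 6.48. It was low only in GFP- CD25- cells, with the other populations 2.21-fold, 3.06-fold and 3.24-fold higher. Its probe set is of a type that can match several transcripts, and the 3 other probe sets of the gene were under the floor on every array, so this difference has no second reading.

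Tm7sf2, a sterol reductase, read 6.36, 6.60, 7.61 and 6.12. The Foxp3-null array was alone at the top, 2.37-fold over GFP- CD25- cells, 2.01-fold over GFP- CD25+ cells and 2.8-fold over Foxp3-fusion cells. On the deposited scale these differences were 0.87, 0.85 and 0.91 log2, all under 2-fold. It has 1 probe set.

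Msmo1, the methyl sterol oxidase, read 6.04, 6.77, 5.44 and 4.91. Both GFP- arrays were above both GFP+ arrays, and Foxp3-fusion cells were 3.63-fold lower than GFP- CD25+ cells and 2.2-fold lower than GFP- CD25- cells. Its other probe set read 3.97, 4.06, 4.01 and 4.79, above the floor only in Foxp3-fusion cells and so in the opposite direction. The direction for Msmo1 therefore depends on the probe set.

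For the other late enzymes no difference reached 2-fold on the probe set used. Lss, lanosterol synthase, read 6.83, 7.27, 7.30 and 6.60, and Nsdhl, a sterol dehydrogenase, read 7.13, 7.38, 7.51 and 6.88. Both were lowest in Foxp3-fusion cells, but the 4 deposited Nsdhl signals ran from 7.21 to 7.23 only. Dhcr7, the reductase that completes cholesterol, read 6.44, 6.12, 6.24 and 5.54, again lowest in Foxp3-fusion cells, by 1.49-fold to 1.87-fold. As deposited, Dhcr7 was lowest there by 1.17-fold to 1.69-fold.

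Sc5d, a sterol desaturase, read 5.19, 5.30, 5.81 and 5.05. The 2 probe sets of Sc5d that were not used gave another picture. One read 2.89, 2.72, 2.98 and 6.10, and the other 3.18, 3.12, 3.07 and 5.18. Both were above the floor in Foxp3-fusion cells alone, where they were at least 3.97-fold and at least 2.1-fold higher than on each other array. That array is also the one with the smallest actin 3' to 5' gap, 5.02 log2; the part of this in the result was not tested.

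**Figure D2:**
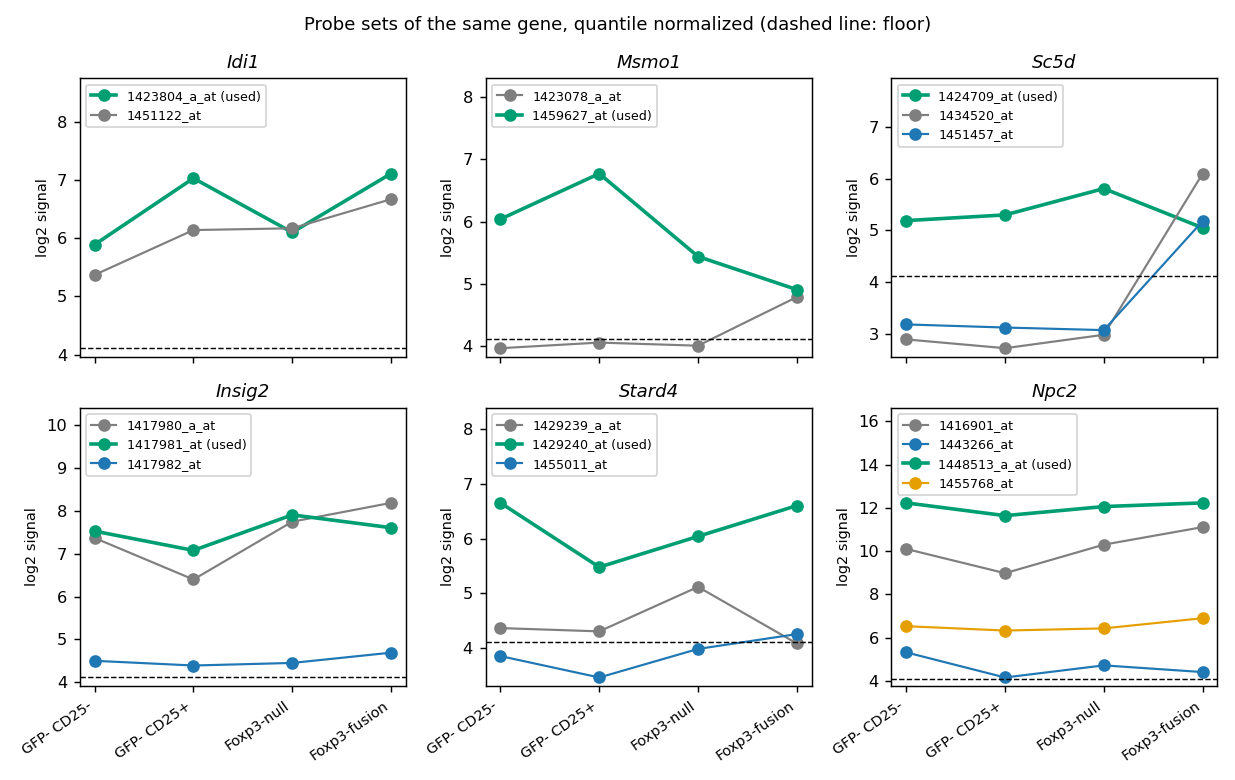
Signal (log2, quantile normalized) of every probe set above the floor on at least 1 array for 6 genes; each point is 1 array, lines only join the points of a probe set, green is the probe set used, and the dashed line is the floor. For Idi1 the probe sets share their lowest and highest population, whereas for Sc5d and Msmo1 the other probe sets are above the floor in Foxp3-fusion cells alone.

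Among the sensors, Insig1 and Srebf1 had 2-fold differences on the probe set used, and Insig2 had them on another. Insig1, itself a target of SREBP and part of the sterol feedback, read 5.10, 6.53, 6.07 and 6.51. It was lowest in GFP- CD25- cells, with GFP- CD25+ cells 2.69-fold, Foxp3-fusion cells 2.65-fold and Foxp3-null cells 1.95-fold higher. Insig1 has 1 probe set.

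Insig2, the other retention protein, read 7.53, 7.08, 7.91 and 7.61, with no 2-fold difference. Another of its probe sets, at 7.37, 6.40, 7.75 and 8.19, kept GFP- CD25+ cells lowest, with Foxp3-fusion cells 3.45-fold and Foxp3-null cells 2.55-fold higher. Scap stayed between 6.12 and 6.48.

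Srebf1, which encodes the SREBP forms tied chiefly to fatty acid synthesis, read 7.89, 8.17, 7.05 and 7.32. Both GFP- arrays were above both GFP+ arrays. The widest gap, Foxp3-null under GFP- CD25+ cells, was 2.17-fold.

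Abca1 gave the clearest difference among the transport genes. It encodes the pump that loads cell cholesterol onto lipoprotein, and read 7.64, 7.71, 7.87 and 9.59. The first 3 arrays lay within 0.23 log2 and Foxp3-fusion cells stood apart, 3.87-fold over GFP- CD25- cells, 3.68-fold over GFP- CD25+ cells and 3.29-fold over Foxp3-null cells. On the deposited scale these folds were 4.5, 5.16 and 4.96. Its 2 other probe sets were under the floor on every array. Macrophages are known for Abca1, and of 10 markers of dendritic cells and macrophages with a probe set, 2 to 3 were above the floor on an array. Their summed linear signal was 123, 188, 296 and 113, and Itgax, Lyz2, Cd68, Itgam, Fcer1g, C1qa and Tyrobp were under the floor on all 4. The part of such cells in the Abca1 signal was not tested.

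Abcg1, another export pump and LXR target, read 8.17, 8.31, 8.52 and 8.54, a spread of 1.29-fold. The deposited signals were 8.25, 8.14, 8.25 and 8.91, with Foxp3-fusion cells alone at the top by 1.58-fold to 1.7-fold. How far Abcg1 followed the order of Abca1 thus depends on the scale.

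Npc1 and Npc2 move cholesterol out of lysosomes. Npc1 read 4.98, 3.90, 4.07 and 5.63, above the floor in GFP- CD25- and Foxp3-fusion cells only, and the Foxp3-fusion array exceeded the GFP- CD25+ and Foxp3-null arrays by at least 2.86-fold. Npc2 read 12.23, 11.64, 12.06 and 12.23, lowest in GFP- CD25+ cells by 1.34-fold to 1.51-fold. A second Npc2 probe set, at 10.10, 8.98, 10.30 and 11.11, also had GFP- CD25+ cells lowest, with Foxp3-fusion cells 4.37-fold higher. The remaining Npc2 probe sets read 5.32, 4.16, 4.72 and 4.41, and 6.53, 6.33, 6.43 and 6.90. Both had GFP- CD25+ cells lowest too, but Foxp3-fusion cells were less than 2-fold higher there.

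Stard4, a carrier of cholesterol between membranes, read 6.65, 5.48, 6.04 and 6.60. GFP- CD25+ cells were lowest, 2.25-fold under GFP- CD25- cells and 2.18-fold under Foxp3-fusion cells. Its other probe sets, at 4.37, 4.31, 5.12 and 4.09 and at 3.86, 3.47, 3.99 and 4.26, did not share this 2-fold gap, and on the first of them the Foxp3-fusion array lay under the Foxp3-null array by at least 2.01-fold.

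Acaca was the one fatty acid gene with a contrast between pairs of populations. It encodes acetyl-CoA carboxylase, the committed step of fatty acid synthesis, and read 5.91, 7.29, 7.26 and 6.00. GFP- CD25+ and Foxp3-null cells formed the high pair, 2.61-fold and 2.56-fold over GFP- CD25- cells, while Foxp3-fusion cells were 2.44-fold and 2.39-fold below them. As deposited, Foxp3-fusion cells were 1.81-fold and 1.61-fold below, and the second Acaca probe set was under the floor on every array.

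Fasn, fatty acid synthase, read 6.88, 7.32, 7.36 and 7.13, so it varied little where Acaca varied over 2-fold. Scd2, a desaturase, read 10.26, 9.31, 9.99 and 10.45. It was lowest in GFP- CD25+ cells, 2.2-fold under Foxp3-fusion and 1.93-fold under GFP- CD25- cells. Elovl6, which lengthens fatty acids, read 4.64, 4.71, 4.60 and 5.22, highest in Foxp3-fusion cells by 1.42-fold to 1.53-fold.

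**Figure D3:**
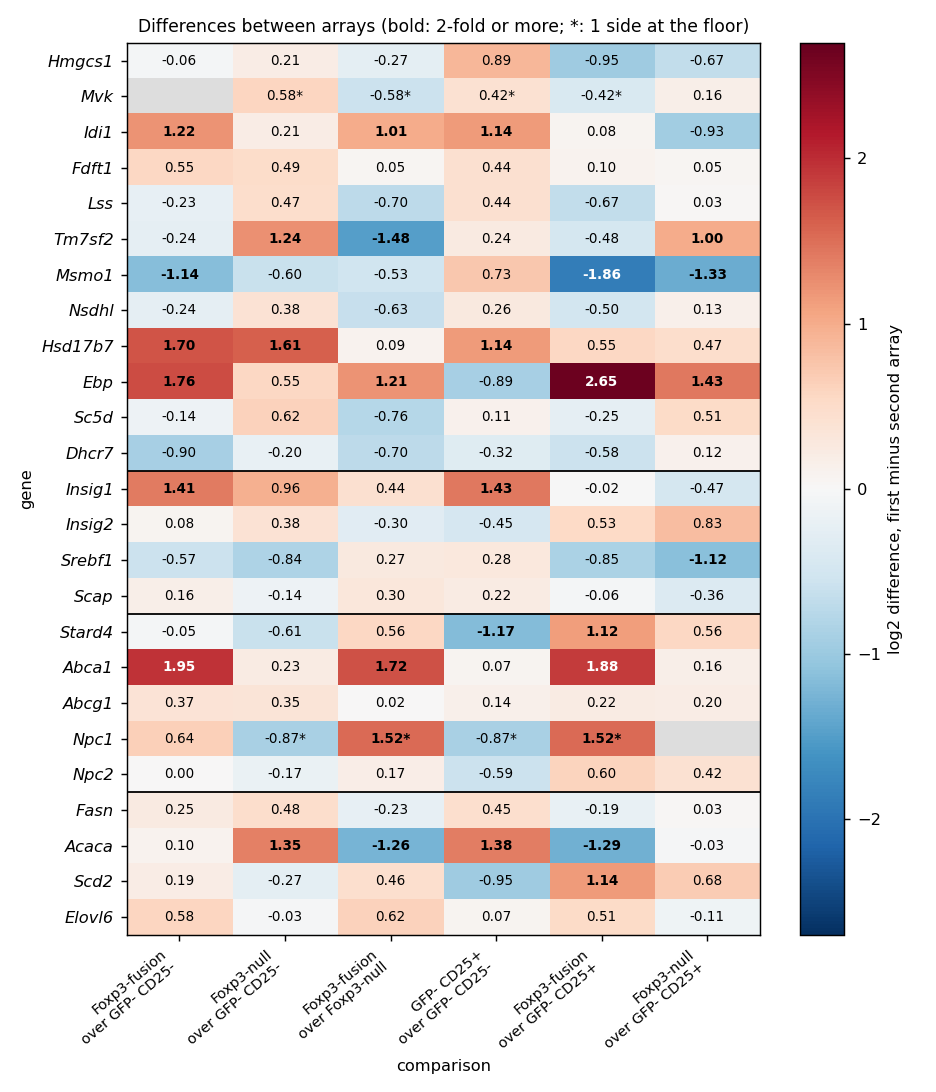
Log2 difference between 2 arrays, first minus second, for the 25 genes (rows, by gene group) in the 6 comparisons (columns); bold marks 2-fold or more, an asterisk a bound with 1 side at the floor, and grey a pair with both sides at the floor. The strongest cell is Ebp at 2.65 in Foxp3-fusion over GFP- CD25+ cells, and Abca1 is 1.72 to 1.95 in the 3 comparisons with Foxp3-fusion cells first.

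Read by comparison, GFP- CD25+ over GFP- CD25- cells set CD25 bearing cells without Foxp3 fusion protein against the bulk of CD4 thymocytes. Of 25 measured genes, 4 (Acaca, Hsd17b7, Idi1 and Insig1) were at least 2-fold higher, or 16%, against 4.12% of all 8114 genes measured, and 1 (Stard4) was at least 2-fold lower, or 4%, against 4.54%. As deposited, 3 were higher and 2 lower, against 2.77% and 7.12% of all genes. The 4 higher became 1 with the median over a gene's probe sets and 2 without multiply matching ones. The sterol pathway enzymes had a median of 0.43 log2, with 10 of 12 above 0, against a median of 0.10 for all genes; the deposited medians were 0.20 and 0.00. Just short of 2-fold lay Hmgcs1 at 0.89, Ebp at -0.89, Scd2 at -0.95 and Npc1 at -0.87 log2, the last a bound. The Hmgcs1 value was not reached by the other probe sets of that gene.

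Foxp3-fusion over GFP- CD25- cells compares regulatory T cells with conventional cells of the same kind of mice. Of 24 measured genes, 5 were at least 2-fold higher (Abca1, Ebp, Hsd17b7, Insig1 and Idi1), or 20.8%, against 9.97% of all genes, and 1 (Msmo1) was at least 2-fold lower, against 5.27%. The deposited scale again gave counts of 5 and 1, against 14.8% and 3.67% of all genes. The enzymes had a median of -0.14 log2, with 4 of 11 above 0, so the genes 2-fold higher were not part of a common shift; for all genes the median was -0.05, and on the deposited scale the medians were 0.00 and 0.12.

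Foxp3-null over GFP- CD25- cells gave 3 of 25 genes at least 2-fold higher (Hsd17b7, Acaca and Tm7sf2), or 12%, against 10.8% of all genes. None was 2-fold lower, against 7.52% of all genes. The deposited scale left Hsd17b7 higher and put Srebf1 2-fold lower, against 5.45% and 11.6% of all genes. The enzyme median was 0.48 log2, with 10 of 12 above 0, against 0.19 for all genes. The deposited values gave 0.10 and 0.00. Of 17 measured cell cycle genes, 10 were at least 2-fold higher here, such as Mki67 at 4.38-fold. The median of the 17 was 1.12 log2, and the deposited scale gave 6 genes and 0.81. Of 10 dendritic cell and macrophage markers with a probe set, 3 were measured here. Of these, 2 were at least 2-fold higher, C1qb at 3.87-fold and Csf1r at no less than 2.62-fold. The rest of the 10, C1qa among them, were under the floor on every array. The part of cell cycle genes and of such marker signals in the lipid gene differences was not tested.

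Foxp3-fusion over Foxp3-null cells sets cells that make Foxp3 protein as a fusion against cells that use the locus without it. Of 25 genes, 4 were at least 2-fold higher (Abca1, Npc1, Ebp and Idi1), or 16%, against 9.32% of all genes, and 2 (Tm7sf2 and Acaca) were 2-fold lower, or 8%, against 9.34%. The deposited values gave 5 higher and 0 lower, against 19.5% and 3.87% of all genes, since Tm7sf2 and Acaca passed under 2-fold and Stard4 passed over it. Idi1, at 1.01 log2, was at 1.59 as deposited. It fell under 2-fold with centred arrays (0.94), the median over its probe sets (0.75) and without multiply matching ones (0.50). The enzyme median was -0.55 log2 and that of all genes -0.15; on the deposited scale these were -0.03 and 0.23. Relative to all genes the enzymes were thus at -0.40 and -0.26. All 5 transport genes were above 0 on both scales, with medians of 0.56 and 1.11 log2. Both medians were the values of Stard4, another probe set of which was at least 2.01-fold lower here. After quantile normalization Abcg1 was at 0.02 and Npc2 at 0.17 log2, and the Npc1 value was a bound. Cell cycle genes were at least 2-fold lower for 7 of 18 here (4 as deposited), and C1qb was 5.1-fold lower.

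Foxp3-fusion over GFP- CD25+ cells gave 5 of 25 genes at least 2-fold higher (Ebp, Abca1, Npc1, Scd2 and Stard4), or 20.0%, against 11.6% of all genes, and 2 (Msmo1 and Acaca) lower, or 8%, against 8.06%. As deposited, there were 6 higher and 1 lower, against 20.9% and 3.3% of all genes. Idi1 and Insig1, which set both populations apart from GFP- CD25- cells, differed by 0.08 and -0.02 log2 between them. On the deposited scale these differences were 0.59 and 0.44 log2, with Foxp3-fusion cells higher, so how alike the populations were depends on the scale.

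Foxp3-null over GFP- CD25+ cells gave 2 of 24 genes higher (Ebp and Tm7sf2), or 8.33%, against 8.53% of all genes, and 2 lower (Msmo1 and Srebf1), or 8.33%, against 7.3%. These shares are near those of all genes. The deposited scale gave 1 higher and 3 lower, against 6.25% and 8.12%. The comparisons share arrays, so these counts are not separate pieces of evidence; the 3 with GFP- CD25- cells second all rest on that array. It was also the only one where the NK and NKT cell markers Klrd1 (6.32) and Zbtb16 (6.39) were above the floor, and the summed signal of the 4 measured NK and NKT markers was 173 there and 26.3 to 28.1 elsewhere, with Ncr1 and Klrk1 under the floor throughout. Nkg7, a cytotoxic granule gene of NK and CD8 T cells, read 4.95, 2.95, 6.25 and 5.88 and so had another order. The part of such cells in the low Insig1 and Hsd17b7 signals of that array was not tested, and in such bulk samples fewer cells of a type and less RNA per cell cannot be told apart.

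**Figure D4:**
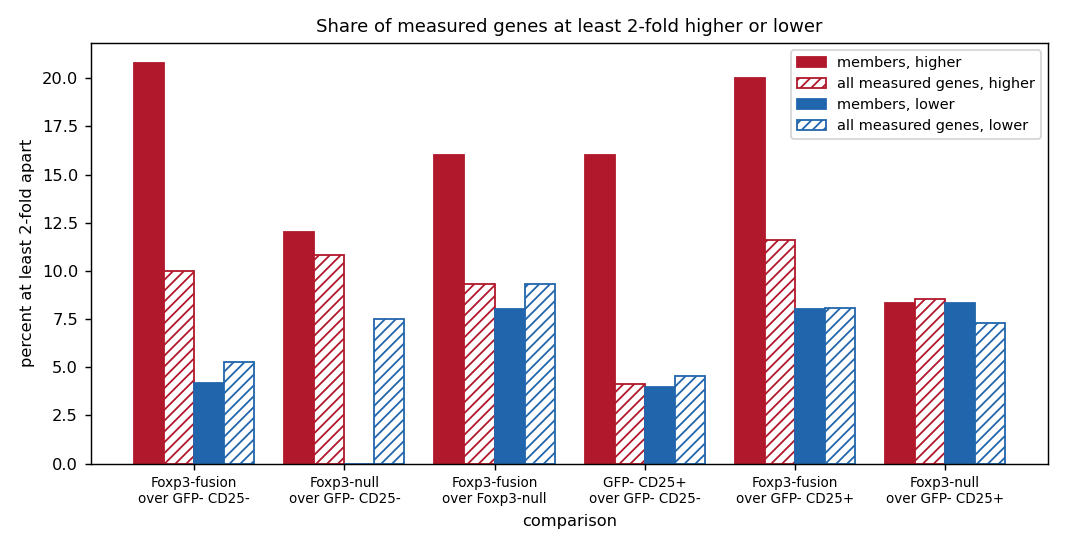
Percent of measured genes at least 2-fold higher (red) or lower (blue) in each comparison, for the sterol and lipid genes (filled) and for all measured genes (hatched), 1 array per population. The widest gap is in GFP- CD25+ over GFP- CD25- cells, with 16% of 25 genes higher against 4.12% of all, a count of 4 that falls to 1 or 2 with other choices of probe set; each bar of the smaller set stands for at most 5 genes.

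A longer list of 54 sterol and lipid genes outside the set held 47 with a probe set, of which 31 or 32 were measured in a comparison. Over GFP- CD25- cells, 2 were at least 2-fold higher and 5 lower in Foxp3-fusion cells, 3 and 4 in Foxp3-null cells, and 1 and 5 in GFP- CD25+ cells. Of all genes, 9.97% and 5.27%, 10.8% and 7.52%, and 4.12% and 4.54% were so. As deposited, the counts were 2 and 4, 1 and 8, and 1 and 5. The deposited shares of all genes were 14.8% and 3.67%, 5.45% and 11.6%, and 2.77% and 7.12%. Medians were -0.16, 0.03 and 0.00 log2, against -0.05, 0.19 and 0.10 for all genes. Elovl7, another fatty acid elongase, was lower in all 3, by 6.72-fold, at least 8.72-fold and 6.31-fold. Gramd1a, which carries cholesterol from the plasma membrane inward, read 9.07, 7.68, 8.82 and 6.50 and was 5.94-fold lower in Foxp3-fusion than in GFP- CD25- cells. Its relative Gramd1b, at 2.65-fold, was lower in the same comparison, but 1.23-fold higher in GFP- CD25+ and 1.19-fold higher in Foxp3-null than in GFP- CD25- cells. Pggt1b was 2.77-fold lower in Foxp3-fusion and 3.5-fold lower in Foxp3-null than in GFP- CD25- cells, but 1.71-fold higher in GFP- CD25+ cells. Mylip, a ligase made in response to LXR, was 2.84-fold lower in GFP- CD25+ and 2.35-fold lower in Foxp3-null than in GFP- CD25- cells. For this gene Foxp3-fusion cells were 2.28-fold over GFP- CD25+ cells but 1.25-fold under GFP- CD25- cells. Rnf139, a ubiquitin ligase tied to sterol control, was 2.97-fold higher in Foxp3-fusion and 2.86-fold higher in Foxp3-null than in GFP- CD25- cells. Fabp5, a fatty acid carrier, was 3.7-fold higher in GFP- CD25+ than in GFP- CD25- cells.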

How the data were processed

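The authors' deposited table held 1 value per probe set and array, taken as log2 from the range of the values; background correction, summarisation, normalization and log base are not given in the sources used here. Per the labels' protocols, RNA went through 2 rounds of amplification before hybridisation. Of 45101 probe sets, 64 controls were left out; 34945 had 1 gene in the platform annotation, 932 several and 9160 none listed, and only the first were named. Gene identifiers of 34741 matched RefSeq (GRCm38.p6), which also gave promoter windows. Deposited 90th percentiles ran from 7.54 to 8.17, so arrays were quantile normalized (Python 3.11.15, numpy 2.4.6, pandas 2.3.3). Probe sets of genes silent outside other organs (71) set the floor: their 90th percentile on the array where it was highest, 4.11 log2 (4.18 deposited). A gene was measured in a comparison if above the floor on either array; with 1 array a group there is no test or replicate, and the number of arrays limits the precision. The steps were tested on simulated data. All 35 genes were named; others only if 2-fold apart and among the 5 largest of a fixed list in a direction. The genes and lists were chosen with earlier results of these data known. The 7 alternatives were the deposited scale, centred arrays, a threshold of 1.5-fold, no floor, raising the floor by 1 log2 unit, taking a gene's median probe set signal, and dropping multiply matching probe sets (suffix _x_at, _s_at or _a_at).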

Additional observations from a re-analysis of the deposited data

How the results depend on the processing

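Each count and median was recomputed under 7 alternatives, and a count was taken as moved when it left 1.5 times its main value. The 6 medians of the sterol pathway enzymes moved by less than 0.58 log2 (1.5-fold) under every alternative run. Each main median was itself smaller than 0.58 log2 in size, so a fall to 0 would still have counted as held. Several did shrink towards 0: Foxp3-fusion over Foxp3-null went from -0.55 to -0.03 as deposited. Over counts and medians, 91 recomputed values held, all the medians among them, and 29, all counts, moved. Shares of all genes are given above at 2-fold only, on the main and deposited scales. Moves under the other alternatives therefore cannot be set against all genes, and at 1.5-fold a count can only stay or rise. Counts higher moved as follows. For Foxp3-null over GFP- CD25- cells, 3 became 1 as deposited, 1 with the median over probe sets and 5 at 1.5-fold. For GFP- CD25+ over GFP- CD25- cells, 4 became 1 with the median over probe sets and 2 without probe sets that can match several transcripts. For Foxp3-null over GFP- CD25+ cells, 2 became 1 as deposited, 1 with centred arrays and 4 at 1.5-fold. Counts lower were small and moved more. Foxp3-fusion over GFP- CD25- cells went from 1 to 2 with centred arrays, 0 with a floor 1 log2 unit higher, 0 with the median over probe sets, 2 without multiply matching probe sets and 2 at 1.5-fold. Foxp3-null over GFP- CD25- cells went from 0 to 1 as deposited and 4 at 1.5-fold. Foxp3-fusion over Foxp3-null cells went from 2 to 0 as deposited, 1 with the median over probe sets and 6 at 1.5-fold. GFP- CD25+ over GFP- CD25- cells went from 1 to 2 as deposited, without a floor and without multiply matching probe sets, to 0 with the median over probe sets and to 5 at 1.5-fold. Foxp3-fusion over GFP- CD25+ cells went from 2 to 1 as deposited, 0 with the median over probe sets and 5 at 1.5-fold. Foxp3-null over GFP- CD25+ cells went from 2 to 1 with the median over probe sets, 1 without multiply matching probe sets and 4 at 1.5-fold. Of 31 single differences of at least 2-fold, 24 were at least 2-fold as deposited and all 31 kept their direction there. Over all alternatives, 12 of the single values that could be measured moved. With the median over probe sets, Acaca came to 0.63 or -0.63 in 4 comparisons, Msmo1 to -0.16, -0.57 and -0.69 in 3, and Stard4 to -0.06 in GFP- CD25+ over GFP- CD25- cells. With the higher floor Npc1 came to 0.52 in 2. All these fell short of 2-fold, whereas Abca1 (4.96-fold) and Ebp (3.48-fold) in Foxp3-fusion over Foxp3-null cells were larger as deposited. Stard4 in Foxp3-fusion over GFP- CD25+ cells reversed to -0.05 log2 with the median over probe sets. The cause of these moves was not tested. Other probe sets above the floor, of Idi1, Msmo1 and Stard4, gave 8 readings of such differences: 5 had the same direction, 1 of them at least 2-fold, and 3 the opposite one. Some 2-fold differences were not measured at all under an alternative and are in none of these tallies. With the median over probe sets, Abca1, Hsd17b7 and Scd2 fell under the floor on every array. Without multiply matching probe sets, Hsd17b7 was under the floor and Srebf1 had no probe set. No paired analysis was possible because each group has 1 array.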
